A study of Mus musculus with 15 samples.

Results

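Caveolae are flask-shaped pits of the plasma membrane whose coat is built by caveolins and cavins and held at the neck by the ATPase EHD2. The 8 mouse genes of this coat, Cav1, Cav2, Cav3, Cavin1, Cavin2, Cavin3, Cavin4 and Ehd2, were chosen by name and all 8 were found among the 30672 genes of the count table, where 4 cavins are known under older names (Cavin1 as Ptrf, Cavin2 as Sdpr, Cavin3 as Prkcdbp and Cavin4 as Murc). Caveolin 1 and caveolin 2 are the caveolins of endothelial cells, adipocytes, smooth muscle and fibroblasts, while caveolin 3 and cavin 4 belong to muscle fibres, where caveolin-rich membrane is tied to the forming T-tubule. Cavin 1 is needed for caveolae in all of these cells.

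RNA was sequenced from the tibialis anterior, a fast hindlimb muscle, of male 129Pas mice aged 7 weeks. Wild-type mice without tamoxifen formed the group WT (n = 4) and wild-type mice given tamoxifen the group WT + TAM (n = 4). Males that lack function of Mtm1, an X-linked gene that encodes the phosphoinositide phosphatase myotubularin, formed the groups Mtm1-/y (n = 4) and, with tamoxifen, Mtm1-/y + TAM (n = 3). Loss of Mtm1 models X-linked myotubular myopathy, and tamoxifen is a modulator of oestrogen receptors (the dosing scheme was not stated in the sources read). The 2 treated groups share the drug and the 2 mutant groups share the genotype, so the comparisons below ask what the missing gene and the drug each do to the transcripts of the caveolar coat.

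Values are CPM, the usual read counts scaled to a common library total, here with the TMM factor of edgeR. Totals ran from 18042558 to 45823277 counts, and a member had between 150 and 13014 counts in any library, so counting error was small beside the spread between libraries. Mtm1 itself was at 14.9 to 15.6 CPM in WT, 13.5 to 17.7 in WT + TAM, 2.91 to 3.63 in Mtm1-/y and 3.04 to 3.71 in Mtm1-/y + TAM, so all 7 mutant libraries were under all 8 wild-type libraries. The fast myosin Myh4, which marks this muscle, was at 34978 CPM or more in every library. A pair of libraries stood apart from their groups in a principal component analysis of all tested genes, namely Mtm1-/y replicate 1 (-69.1 on the second component, where the others lay between -21.2 and 33.5) and WT + TAM replicate 1 (-73.1 on the third, where the others lay between -3.93 and 11.6). WT + TAM replicate 1 had a summed slow-fibre marker level of 414 CPM per kb against a group median of 34.8. Many results that rest on either library are also given without them, or as ranges over libraries left out in turn.

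**Figure D1:**
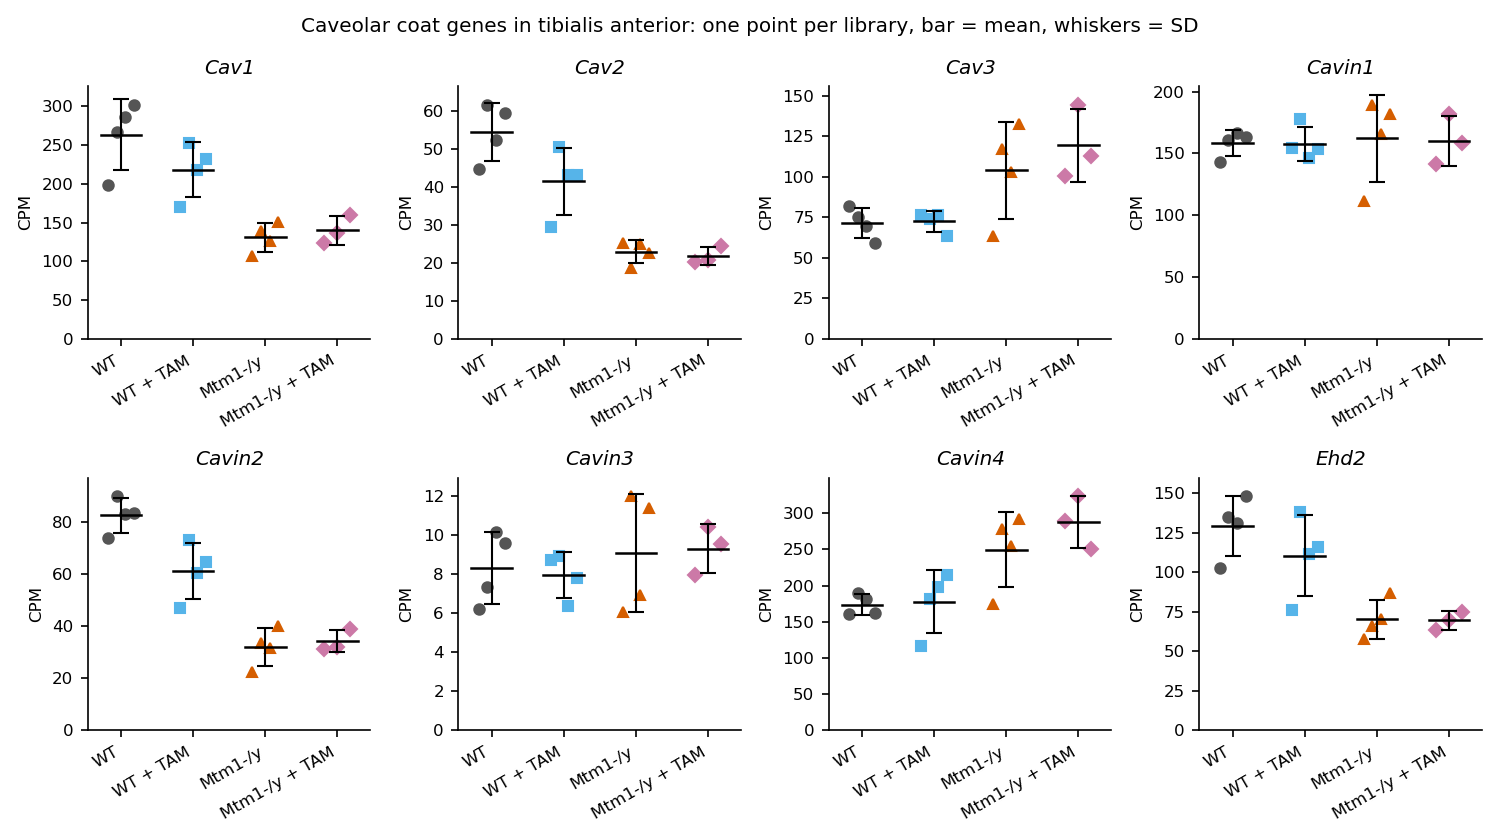
CPM of each caveolar coat gene (vertical axes, starting at 0) in the 4 groups, with a point for each library, a bar at the mean and whiskers of 1 SD. In both mutant groups the points of Cav1, Cav2, Cavin2 and Ehd2 lie under those of WT, the points of Cav3 and Cavin4 lie higher except for Mtm1-/y replicate 1, and those of Cavin1 and Cavin3 overlap with WT.

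Levels can be set against each other between genes only per exon length, as CPM per kb. In WT muscle Cavin4 was the highest member at 84.4 ± 7.10 CPM per kb (SD, n = 4), followed by Cav1 at 76.6 ± 13.2, Cav3 at 61.7 ± 8.19 and Cavin1 at 44.2 ± 2.98. The lower levels were those of Cavin2 at 27.1 ± 2.17, Ehd2 at 25.2 ± 3.73, Cav2 at 16.3 ± 2.32 and Cavin3 at 5.0 ± 1.11. The ranges of the neighbours Cavin4 and Cav1, Cav1 and Cav3, and Cavin2 and Ehd2 overlapped between libraries, and the other neighbours in this order did not. The 4 highest places were thus held by the muscle genes Cavin4 and Cav3 and by Cav1 and Cavin1.

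In Mtm1-/y muscle the order was another. Cavin4 led at 121 ± 25.3 CPM per kb (SD, n = 4), with Cav3 second at 89.8 ± 25.7 and their ranges overlapping. Cav1 at 38.0 ± 5.48 came next beneath Cavin1 at 45.2 ± 9.79, again with overlapping ranges. At the low end Ehd2 at 13.7 ± 2.39, Cavin2 at 10.5 ± 2.39, Cav2 at 6.85 ± 0.910 and Cavin3 at 5.47 ± 1.82 each overlapped with the next. In WT + TAM the order was that of WT but for Ehd2, at 21.6 ± 5.0 CPM per kb (SD, n = 4), which came before Cavin2, at 20.1 ± 3.54, with overlapping ranges. In Mtm1-/y + TAM the order was that of Mtm1-/y, from Cavin4 at 140.1 ± 17.7 and Cav3 at 103 ± 19.5 down to Cavin3 at 5.59 ± 0.748 (SD, n = 3). As levels per kb, Cav3 stood under Cav1 in 3 of 4 WT libraries and above it in 4 of 4 Mtm1-/y libraries.

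Between Mtm1-/y and WT, 6 of 8 members were called at an adjusted p under 0.05, of which 4 were lower (Cav1, Cav2, Cavin2 and Ehd2) and 2 higher (Cav3 and Cavin4). Calls are from edgeR's quasi-likelihood test with Benjamini-Hochberg adjustment over all 15533 tested genes, and 30.4% of those genes were called in this comparison (14.9% lower and 15.5% higher). The median log2 fold change of the members was -0.42, against 0.00 for all tested genes. All 8 members passed the filter on low counts. Without both libraries that stood apart, 6 members were called again.

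Cav1, the caveolin that builds caveolae outside striated fibres, lies on chromosome 6 (17306335 to 17341452, plus strand, GRCm38). It was at 199, 267, 286 and 302 CPM in the WT libraries and at 107, 139, 126 and 151 in Mtm1-/y. The lowest WT library was above the highest Mtm1-/y library. Cav1 fell by 1.01 ± 0.15 on the log2 scale (SE of the fit, edgeR adjusted p = 0.000266), to 0.496 of its WT level. Under tamoxifen the libraries of WT + TAM were at 170.0, 253, 218 and 233 CPM and those of Mtm1-/y + TAM at 123, 137 and 160.2. The treated groups did not overlap either, although WT + TAM replicate 1, at 170.0, came near the highest mutant library, at 160.2. Cav1 fell by 0.64 ± 0.17 in this comparison (edgeR adjusted p = 0.0142).

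Cav2, the partner that joins caveolin 1 in mixed oligomers, is the neighbour of Cav1, with 17219 bases between the end of Cav2 (chromosome 6, 17281185 to 17289115, plus strand) and the start of Cav1. Its WT libraries were at 44.6, 61.7, 52.3 and 59.5 CPM and its Mtm1-/y libraries at 25.3, 18.7, 25.0 and 22.5, with no overlap. The fall was 1.25 ± 0.15 on the log2 scale (edgeR adjusted p = 4.78e-05). With tamoxifen Cav2 was at 29.4, 50.4, 43.0 and 43.2 CPM in WT + TAM and at 20.1, 20.7 and 24.4 in Mtm1-/y + TAM, again without overlap, and it fell by 0.93 ± 0.17 (edgeR adjusted p = 0.00160). Cav2 was the single member for which Mtm1-/y replicate 1 was the highest and not the lowest library of its group.

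Cavin2 lies on chromosome 1 (51289126 to 51302960, plus strand) and encodes a coat protein that binds phosphatidylserine and bends membrane. Among the 8 genes it had the largest log2 fold change between Mtm1-/y and WT. Its WT libraries were at 74.0, 90.1, 83.2 and 83.5 CPM and its Mtm1-/y libraries at 22.5, 33.6, 31.7 and 40.1. The gap between the groups was wider than the range within either, and Cavin2 fell by 1.37 ± 0.16 on the log2 scale (edgeR adjusted p = 3.10e-05), to 0.387 of WT. In the treated groups it was at 47.2, 73.2, 60.6 and 64.8 CPM in WT + TAM and at 31.4, 32.1 and 39.0 in Mtm1-/y + TAM. These groups also stayed apart, with a fall of 0.84 ± 0.17 (edgeR adjusted p = 0.00360).

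Ehd2, the ATPase that rings the caveolar neck and keeps caveolae at the surface, lies on chromosome 7 (15946958 to 15967567, minus strand). It was at 103, 135, 131 and 148 CPM in WT and at 57.5, 66.2, 70.3 and 86.6 in Mtm1-/y. No mutant library reached the lowest WT library, and Ehd2 fell by 0.88 ± 0.17 on the log2 scale (edgeR adjusted p = 0.00120). In WT + TAM it was at 76.1, 138, 111 and 116 CPM and in Mtm1-/y + TAM at 63.2, 69.9 and 75.0. The treated groups were apart only by the distance between 75.0 and the 76.1 of WT + TAM replicate 1, and the fall was 0.67 ± 0.18 (edgeR adjusted p = 0.0174). Cav1, Cav2, Cavin2 and Ehd2 kept their calls between Mtm1-/y and WT in 24 of 24 alternative analyses. In each comparison, some of the 24 left out only a library of a group not compared, which could change little.

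Cav3, the caveolin of the sarcolemma, whose mutations cause muscle disease in people, lies on chromosome 6 (112459505 to 112472872, plus strand). It was at 81.6, 75.1, 69.7 and 59.2 CPM in WT and at 63.2, 117, 103 and 133 in Mtm1-/y. Mtm1-/y replicate 1, at 63.2, lay inside the WT range, and the other 3 mutant libraries lay above it. Cav3 rose by 0.54 ± 0.18 on the log2 scale (edgeR adjusted p = 0.0361), and this call was lost in 11 of 24 alternative analyses, with adjusted p-values up to 0.114. It was lost with upper-quartile factors, no filter, limma-voom, a replicate block and only the 2 groups fitted, and without single libraries. The rise was 0.72 without Mtm1-/y replicate 1 (adjusted p = 0.00113) and between 0.40 and 0.57 without each of the 6 libraries that ended the call, WT replicates 2, 3 and 4 and Mtm1-/y replicates 2, 3 and 4. With tamoxifen the WT + TAM libraries were at 76.2, 73.7, 76.5 and 63.2 CPM and the Mtm1-/y + TAM libraries at 101, 144 and 113. Here the groups did not overlap, and Cav3 rose by 0.72 ± 0.20 (edgeR adjusted p = 0.0181), which was lost without Mtm1-/y + TAM replicate 2 (0.56, adjusted p = 0.106).

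Cavin4, the muscle cavin, lies on chromosome 4 (48663514 to 48673502, plus strand). Its WT libraries were at 161, 189.7, 182 and 161 CPM and its Mtm1-/y libraries at 175, 278, 254 and 291. As with Cav3, replicate 1 of Mtm1-/y fell within the WT range and the other 3 lay above it. Cavin4 rose by 0.53 ± 0.18 on the log2 scale (edgeR adjusted p = 0.0363). The call was lost in 8 of 24 alternatives, namely limma-voom (adjusted p = 0.0502) and leaving out any of the 4 WT libraries or of Mtm1-/y replicates 2, 3 and 4, with log2 fold changes of 0.44 to 0.57. Without Mtm1-/y replicate 1 it was 0.66 (adjusted p = 0.00641). In the treated groups Cavin4 was at 117, 181, 198 and 215 CPM in WT + TAM and at 289, 324 and 251 in Mtm1-/y + TAM, without overlap. It rose by 0.69 ± 0.19 (edgeR adjusted p = 0.0189), and the call was lost without Mtm1-/y + TAM replicate 1 (0.69, adjusted p = 0.0530) or replicate 2 (0.60, adjusted p = 0.0899).

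Cavin1, the scaffold without which caveolae do not form, lies on chromosome 11 (100956733 to 100970887, minus strand). It was at 143, 161, 167 and 163 CPM in WT, at 112, 189, 166 and 182 in Mtm1-/y, at 154, 178, 146 and 154 in WT + TAM and at 141, 182 and 158 in Mtm1-/y + TAM. All 4 groups overlapped, with means between 158 and 162 CPM. The log2 fold change between Mtm1-/y and WT was 0.03, with a 95% confidence interval of -0.26 to 0.33 (edgeR adjusted p = 0.880), and between the treated groups it was 0.02 (-0.30 to 0.34, adjusted p = 0.939). A change in either direction of the size seen for Cav1, Cav2, Cavin2 or Ehd2 lies outside these intervals.

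Cavin3, which binds protein kinase C delta, lies on chromosome 7 (105480083 to 105482300, minus strand) and was the lowest member in every group. Its libraries were at 6.20, 7.35, 10.1 and 9.56 CPM in WT and at 6.07, 12.0, 6.93 and 11.4 in Mtm1-/y. The groups overlapped over nearly their whole range. The log2 fold change was 0.13 (95% confidence interval -0.33 to 0.59, edgeR adjusted p = 0.688) and, with tamoxifen in both groups, 0.24 (-0.26 to 0.74, adjusted p = 0.522). The first interval holds a change of the size seen for Cav3. A gene model on the opposite strand, Gm45667, shares 374 exon bases with Cavin3 and had 16 counts over all libraries, beside 4024 for Cavin3.

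In the treated pair, Mtm1-/y + TAM against WT + TAM, the same 6 of 8 members were called in the same directions (20.1% of all genes tested, 9.46% lower and 10.6% higher), and in all 6 the groups did not overlap (31.6% of all genes tested). That count was 3 without Mtm1-/y + TAM replicate 1 and 2 without its replicate 2. With 2 mutant libraries left, Cav1 (adjusted p = 0.0696 without replicate 1 and 0.0584 without replicate 2) and Ehd2 (0.0729 and 0.0597) also missed the threshold, while Cav2 and Cavin2 were called in all 24 alternatives. When each library was left out in turn, the log2 fold change between the treated groups was -0.75 to -0.56 for Cav1. It was -1.06 to -0.82 for Cav2, -0.95 to -0.75 for Cavin2 and -0.81 to -0.54 for Ehd2. The count of members without overlap between the untreated groups was 4, all lower (15.7% of all genes tested).

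**Figure D2:**
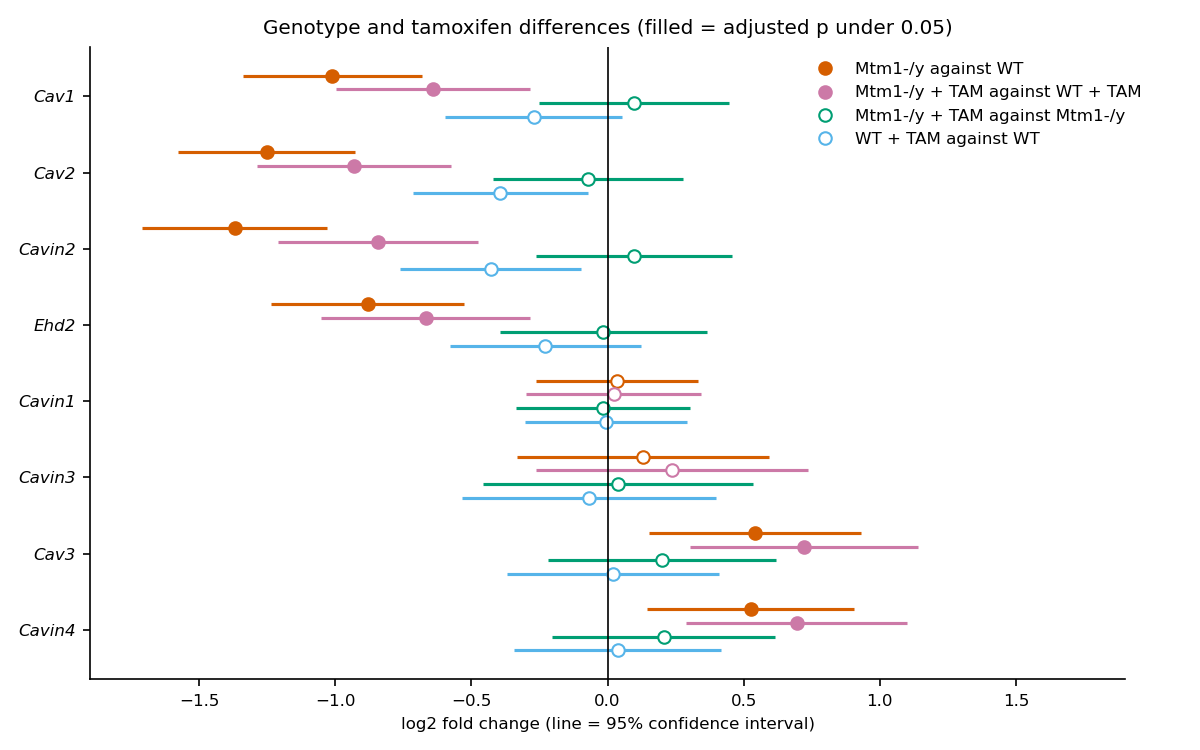
Log2 fold change of each member (horizontal axis) in the 2 genotype comparisons and the 2 tamoxifen comparisons, with lines for the 95% confidence interval of the edgeR fit and filled points for an adjusted p under 0.05. The genotype points of Cav1, Cav2, Cavin2 and Ehd2 lie between -1.37 and -0.64, those of Cav3 and Cavin4 between 0.53 and 0.72, and all tamoxifen points are open.

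Tamoxifen was compared within each genotype. In mutant muscle, Mtm1-/y + TAM against Mtm1-/y, 0 of 8 members were called by edgeR, 0 had an unadjusted p under 0.05 (5.54% of all genes tested) and 0 were called by DESeq2 or limma-voom (0.0129% of all genes tested were called by edgeR). The log2 fold changes lay between -0.07 for Cav2 and 0.21 for Cavin4. Without Mtm1-/y replicate 1, Cavin4 was at 0.069 and Cav3 at 0.022, and without both libraries that stood apart the lowest member was Cavin1, at -0.16, and the highest Cavin4, at 0.069. Intervals were as wide as -0.46 to 0.54 for Cavin3, with -0.25 to 0.45 for Cav1 and -0.22 to 0.62 for Cav3. Changes within those bounds therefore remain possible. All 8 members overlapped between the groups, and 5.71% of all genes tested did not overlap.

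In wild-type muscle, WT + TAM against WT, 0 of 8 members were called by edgeR, DESeq2 or limma-voom (0.309% of all genes tested by edgeR), and 2 had an unadjusted p under 0.05 (11.3% of all genes tested). These were Cavin2, with a log2 fold change of -0.43 ± 0.16 (edgeR adjusted p = 0.297) and Cav2, with -0.39 ± 0.15 (edgeR adjusted p = 0.323). For Cavin2 the 4 WT + TAM libraries, at 47.2 to 73.2 CPM, were all under the 74.0 to 90.1 of WT, while those of Cav2 overlapped. WT + TAM replicate 1 was the lowest library of its group for both genes, and without it and Mtm1-/y replicate 1 the values were -0.32 for Cavin2 and -0.26 for Cav2. All WT + TAM libraries were under all WT libraries for 3.86% of all genes tested.

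The interaction asks whether the genotype difference was another with tamoxifen than without. It was called for 0 of 8 members by edgeR (0% of all genes tested) and by DESeq2, and Cavin2 alone had an unadjusted p under 0.05 (10.6% of all genes tested), with a difference of 0.53 ± 0.23 on the log2 scale (edgeR adjusted p = 0.451). Without both libraries that stood apart, the difference was 0.28 for Cavin2 (edgeR adjusted p = 0.513) and 0.18 for Cav1. Intervals of the other members were wide, for instance -0.11 to 0.85 for Cav1. Treated mutants were also set against untreated wild type. In Mtm1-/y + TAM against WT, which shares the WT libraries with the first comparison, 6 of 8 members were called (23.3% of all genes tested, 11.3% lower and 11.9% higher), with Cav1 at -0.91, Cav2 at -1.32, Cavin2 at -1.27, Ehd2 at -0.90, Cav3 at 0.74 and Cavin4 at 0.73.

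Ratios of CPM per kb were also taken within each library, where the scaling factor cancels. The ratio of Cav3 to Cav1, the muscle caveolin over the caveolin of the other cells, was 1.22, 0.836, 0.725 and 0.583 in the WT libraries and 1.75, 2.51, 2.43 and 2.61 in Mtm1-/y. All mutant libraries were above all WT libraries. The difference was 1.5 on the log2 scale (two-sided exact permutation test, p = 0.0286, 0.0429 adjusted over 6 ratio tests), with 0.0286 the smallest p that 4 against 4 libraries allow. With tamoxifen the ratio was 1.34, 0.866, 1.05 and 0.808 in WT + TAM and 2.43, 3.14 and 2.10 in Mtm1-/y + TAM. The difference was 1.34 (exact permutation p = 0.0286, adjusted 0.0429), and again no library crossed.

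Within the cavins the same was done with Cavin4 over Cavin1. The ratio was 1.97, 2.06, 1.9 and 1.73 in WT and 2.74, 2.56, 2.68 and 2.80 in Mtm1-/y. Here Mtm1-/y replicate 1 sat with the rest of its group, at 2.74, although both of its genes were the lowest of the group as CPM. The difference was 0.50 on the log2 scale (exact permutation p = 0.0286, adjusted 0.0429). In the treated groups the ratio was 1.32, 1.78, 2.37 and 2.45 in WT + TAM and 3.58, 3.11 and 2.77 in Mtm1-/y + TAM, and the difference of 0.71 missed the threshold (exact permutation p = 0.0571, adjusted 0.0686).

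**Figure D3:**
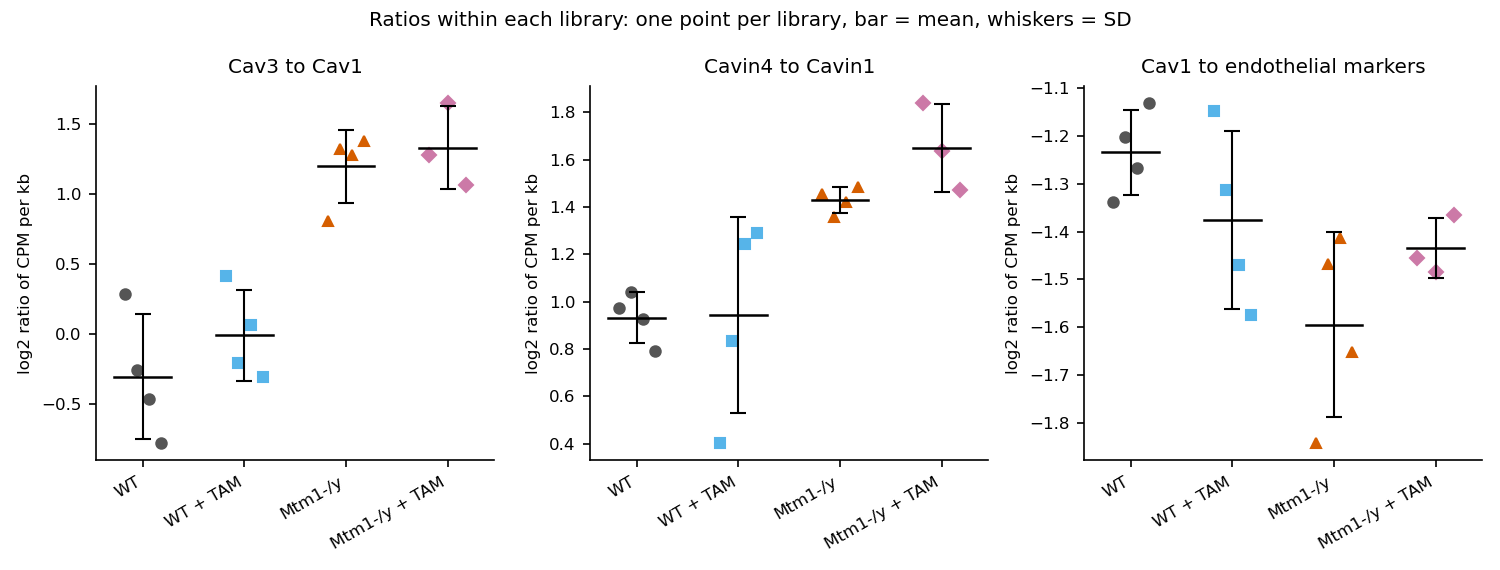
Log2 ratio of CPM per kb in each library (points) with the group mean and 1 SD, for Cav3 to Cav1, Cavin4 to Cavin1 and Cav1 to the summed level of 13 endothelial markers. The axes do not start at 0. The ratio of Cav3 to Cav1 separates both mutant groups from both wild-type groups, while that of Cav1 to the endothelial markers separates Mtm1-/y from WT and overlaps between the treated groups.

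The 5′ flanks of 2 members that fell, Cav1 and Cavin2, and of the 2 that rose, Cav3 and Cavin4, are printed to show what the sets look like next to each other at the start of transcription. Each is the 250 bases before the RefSeq start in GRCm38.p6, on the plus strand, at chr6:17306085-17306334 for Cav1, chr1:51288876-51289125 for Cavin2, chr6:112459255-112459504 for Cav3 and chr4:48663264-48663513 for Cavin4. Capitals mark E-boxes (CANNTG) and TATA boxes (TATAAA) on either strand.
Cav1: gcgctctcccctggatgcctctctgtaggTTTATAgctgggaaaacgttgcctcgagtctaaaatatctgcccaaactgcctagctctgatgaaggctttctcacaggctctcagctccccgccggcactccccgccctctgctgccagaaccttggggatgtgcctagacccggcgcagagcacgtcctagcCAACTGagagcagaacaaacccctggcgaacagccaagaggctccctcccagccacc
Cavin2: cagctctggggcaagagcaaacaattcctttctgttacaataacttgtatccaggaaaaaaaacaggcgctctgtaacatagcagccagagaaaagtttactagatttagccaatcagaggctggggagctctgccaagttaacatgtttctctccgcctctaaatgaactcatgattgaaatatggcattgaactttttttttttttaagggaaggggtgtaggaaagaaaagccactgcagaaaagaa
Cav3: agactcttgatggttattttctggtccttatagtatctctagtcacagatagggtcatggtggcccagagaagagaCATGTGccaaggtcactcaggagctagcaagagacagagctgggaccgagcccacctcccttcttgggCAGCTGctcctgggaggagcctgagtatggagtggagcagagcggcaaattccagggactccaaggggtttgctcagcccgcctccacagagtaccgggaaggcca
Cavin4: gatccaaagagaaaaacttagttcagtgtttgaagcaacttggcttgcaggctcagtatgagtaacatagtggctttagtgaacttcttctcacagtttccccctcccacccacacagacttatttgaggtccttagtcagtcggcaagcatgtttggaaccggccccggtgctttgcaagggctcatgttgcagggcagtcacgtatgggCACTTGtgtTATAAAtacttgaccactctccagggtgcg
RefSeq windows were found for 7 of 8 members, without Cavin3. Among 32841 windows of the same length, 66.2% held an E-box and 12.4% a TATA box, at any position and on either strand. The share at a given distance from the start was not counted. Cav3 held 2 E-boxes, at 174 and 106 bases before the start, and the second reads CAGCTG, a form found in 13% of windows. Cavin4 held an E-box at 39 and a TATA box at 30 bases before the start. Cav1 held an E-box at 57 bases and a TATA box on the opposite strand at 221 bases, and Cavin2 held neither. Of the others, Cav2 held 2 E-boxes, Ehd2 held 1, which also reads CAGCTG, and Cavin1 held 0 in a window whose start lies 270 bases inside the GENCODE gene. The GC content was 59.6% for Cav1, 40.4% for Cavin2, 56% for Cav3 and 48.8% for Cavin4. The matches are letters in these windows and do not show that a factor binds there.

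The caveolins that fell are those of vascular cells, so the markers of such cells are given beside them. Of 13 endothelial markers, 9 were lower and 0 higher between Mtm1-/y and WT (14.9% and 15.5% of all genes tested). Their median log2 fold change was -0.62, against 0.00 for all tested genes. Cdh5, the cadherin of endothelial junctions, fell by 1.06, and Pecam1, which also marks the endothelium, fell by 0.61 (edgeR adjusted p = 0.000400 and 0.00627). The summed level of the list was 146 to 200.2 CPM per kb in WT and 97.3 to 138 in Mtm1-/y, without overlap. Fewer endothelial cells and less of these RNAs per cell cannot be told apart in whole muscle, and the part of the markers in the fall of Cav1, Cav2, Cavin2 and Ehd2 was not tested beyond the ratios that follow.

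With tamoxifen in both groups, 7 of the 13 endothelial markers were lower and 0 higher (9.46% and 10.6% of all genes tested). Their median was -0.59, with Cdh5 at -0.84. Their summed level was 109 to 201 CPM per kb in WT + TAM and 98.1 to 119.7 in Mtm1-/y + TAM, and WT + TAM replicate 1, at 109, was the library that overlapped. Among 7 smooth muscle and pericyte markers 3 fell and 1 rose between Mtm1-/y and WT (median -0.34), and 5 fell and 1 rose between the treated groups (median -0.63). The summed level of these 7 was 139 to 176 CPM per kb in WT, 117 to 164 in WT + TAM, 100.5 to 125 in Mtm1-/y and 85.7 to 109 in Mtm1-/y + TAM.

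Markers of other cells were counted in the same way. Of 9 adipocyte markers 1 rose (Plin4, named after its value was seen) and 0 fell between Mtm1-/y and WT, with a median log2 fold change of -0.84 (-0.83 between the treated groups, where 1 fell and 0 rose) and summed levels of 98.2 to 114 CPM per kb in WT, 130 to 215 in WT + TAM, 75.3 to 275 in Mtm1-/y and 108 to 125 in Mtm1-/y + TAM. Mtm1-/y replicate 1 gave the 275 and WT + TAM replicate 1 the 215. The other libraries of these groups were at 75.3 to 193 and 130 to 173. The adipocyte genes Adipoq and Plin1 were at most 2.89 CPM in the libraries of WT, Mtm1-/y and Mtm1-/y + TAM. In those of WT + TAM they were at most 12.0 CPM. The summed CPM of the list was 370 to 1518 in Mtm1-/y, so Adipoq and Plin1 made up little of it. Of 5 fibroblast markers 1 rose, of 6 macrophage markers 1 rose, of 10 fast-fibre markers 2 fell and of 7 slow-fibre markers 1 fell in the same comparison. Their medians were -0.16, 0.45, -0.26 and 0.87. Over all genes tested, 15.5% were called higher and 14.9% lower in this comparison. Of 5 myoblast and satellite cell markers 2 rose and 2 fell, with a median of -0.39, and their summed level was 9.76 to 17.1 CPM per kb in WT and 26.0 to 55.5 in Mtm1-/y, without overlap. Pax7, the satellite cell factor, went against that sum, at 5.31 to 7.39 CPM in WT and 0.887 to 1.40 in Mtm1-/y. This list thus did not move as one. The part of these cells in the values of the members was not tested, and no list was tested against another.

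Cav1 was then set over the summed endothelial markers in each library. The ratio was 0.396, 0.435, 0.415 and 0.456 in WT and 0.279, 0.361, 0.375 and 0.318 in Mtm1-/y. Every mutant library was under every WT library, and the log2 difference was -0.36 (two-sided exact permutation test, p = 0.0286, adjusted 0.0429 over 6). In the treated groups the ratio was 0.451, 0.403, 0.361 and 0.336 in WT + TAM and 0.365, 0.358 and 0.388 in Mtm1-/y + TAM. These overlapped, with a log2 difference of -0.06 (exact permutation p = 0.686, adjusted 0.686). Whether the 2 differences were themselves different was not tested.

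The same ratio for the other 3 members that fell was added after the data were seen. Between Mtm1-/y and WT the log2 difference was -0.75 for Cavin2 and -0.61 for Cav2 (exact permutation p = 0.0286 for each, 0.0857 adjusted over these 6 added tests), and -0.24 for Ehd2 (exact permutation p = 0.0857, adjusted 0.129). Between the treated groups it was -0.26 for Cavin2, -0.33 for Cav2 and -0.06 for Ehd2 (exact permutation p = 0.114, 0.0571 and 0.6). Among these 3 members, Cavin2 and Cav2 had the larger shortfalls against the endothelial list and Ehd2 the smallest. None of the 6 tests was past the threshold after adjustment. The p of 0.0286 is the smallest that 4 against 4 libraries allow, and untreated Cav1 had the same. Its adjusted value differs through the other tests adjusted with it, so the adjusted values do not rank Cav1 above Cavin2 and Cav2.

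**Figure D4:**
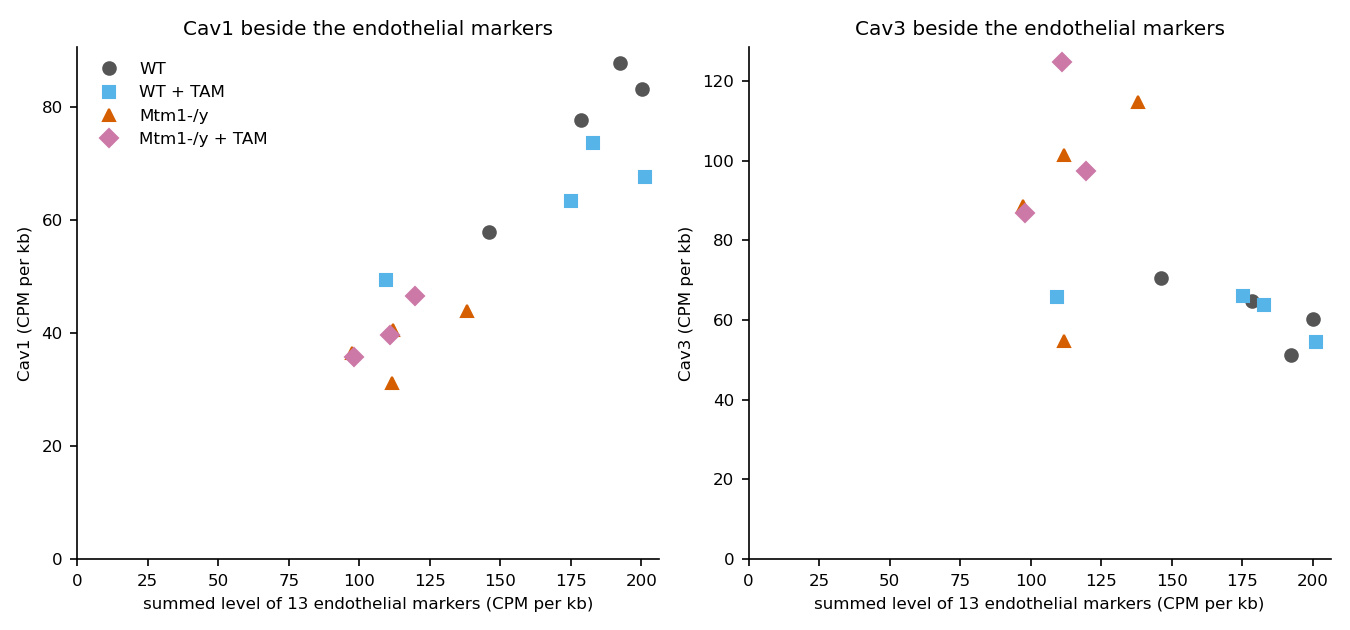
Level of Cav1 (left) and of Cav3 (right) in CPM per kb against the summed level of 13 endothelial markers in the same library, with a symbol for each group and axes from 0. On the left, the 7 mutant libraries and WT + TAM replicate 1 lie at the low end of both axes. Within that end the order differs between the axes. WT + TAM replicate 1 has more Cav1 (49.4) than Mtm1-/y replicate 4 (43.9), with a lower marker level (109 against 138). Cav3, on the right, does not follow this grouping.

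Other genes of the caveolar neck and of the sarcolemma were counted from lists. Among 9 neck and membrane-bending genes, 3 rose and 0 fell between Mtm1-/y and WT (15.5% and 14.9% of all genes tested). The list median was 0.20. Pacsin3, the muscle F-BAR protein of the caveolar neck, rose by 0.60, Ehd4, a relative of Ehd2, by 0.59, and Dnm2, the GTPase that cuts membrane necks, by 0.42 on the log2 scale (edgeR adjusted p = 0.000628, 0.0129 and 0.000980). Between the treated groups the same 3 genes rose (0.49, 0.76 and 0.30), and Ror1, a receptor tyrosine kinase-like protein, fell by 0.80 (adjusted p = 0.0362). Over all genes tested, 10.6% were called higher and 9.46% lower between the treated groups. Ehd2 thus fell where its relative Ehd4 rose, while Ehd1 and Ehd3, named after their values were seen, were at 0.16 and 0.40 and were not called.

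Among 12 sarcolemmal partners of caveolin 3 and flotillins, 4 rose and 1 fell between Mtm1-/y and WT (15.5% and 14.9% of all genes tested). The list median was 0.20. Popdc3, a cyclic-AMP-binding membrane protein, rose by 1.05, Dysf, the membrane-repair protein dysferlin, by 0.73, and the flotillins Flot1 and Flot2 by 0.36 and 0.24 (edgeR adjusted p = 6.33e-05, 0.00241, 0.00602 and 0.0153). Pfkm, the muscle phosphofructokinase, fell by 0.30 (adjusted p = 0.0488). Between the treated groups 3 rose and 1 fell (10.6% and 9.46% of all genes tested). Those that rose were Popdc3 (0.96), Dysf (0.65) and Trim72 (0.51), which encodes the repair protein MG53. Nos1, the neuronal nitric oxide synthase held at the sarcolemma, fell by 1.15 there (adjusted p = 0.00428) and was at -0.30 without tamoxifen (adjusted p = 0.315).

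Of 7 T-tubule membrane-shaping genes, 1 rose and 2 fell between Mtm1-/y and WT (15.5% and 14.9% of all genes tested). Bin1, the amphiphysin that tubulates the T-tubule membrane, rose by 0.51, and Jph1, a junctophilin of the triad, fell by 0.39. The other that fell was Mtm1, whose fall follows from the genotype that defines the groups and is no result about the list. Between the treated groups 1 rose and 3 fell, again with Mtm1 among those that fell (10.6% and 9.46% of all genes tested). Bin1 rose by 0.68, Jph1 fell by 0.54 and Speg, a kinase that partners myotubularin, fell by 0.53 (edgeR adjusted p = 0.00433, 0.00549 and 0.00801). None of the genes on these 3 lists was called between treated and untreated mice of either genotype by edgeR. Over all genes tested, 0.0129% were called in mutant muscle and 0.309% in wild-type muscle.

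The members were also compared within groups, as the Pearson correlation of log2 CPM after the group mean was taken away, over 15 libraries that share the depth and scaling of all genes. Cav1 and Ehd2 moved together most (r = 0.92), then Cavin2 and Ehd2 (0.87), Cav1 and Cavin2 (0.86) and Cavin1 and Cavin3 (0.81). Without the pair of libraries that stood apart, these were 0.88, 0.83, 0.79 and 0.81 over 13 libraries. Cav3 had no such likeness to Cav1 (0.18, and -0.19 over 13 libraries). The likeness of Cavin4 to Cavin2 (0.73), Ehd2 (0.67) and Cav1 (0.59) rested on the 2 libraries, since over 13 it was -0.06, -0.01 and 0.00. Cav2 was at -0.06 with Cavin1, -0.20 with Cavin3 and -0.36 with Cav3, and over 13 libraries at 0.24, 0.034 and -0.29.

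**Figure D5:**
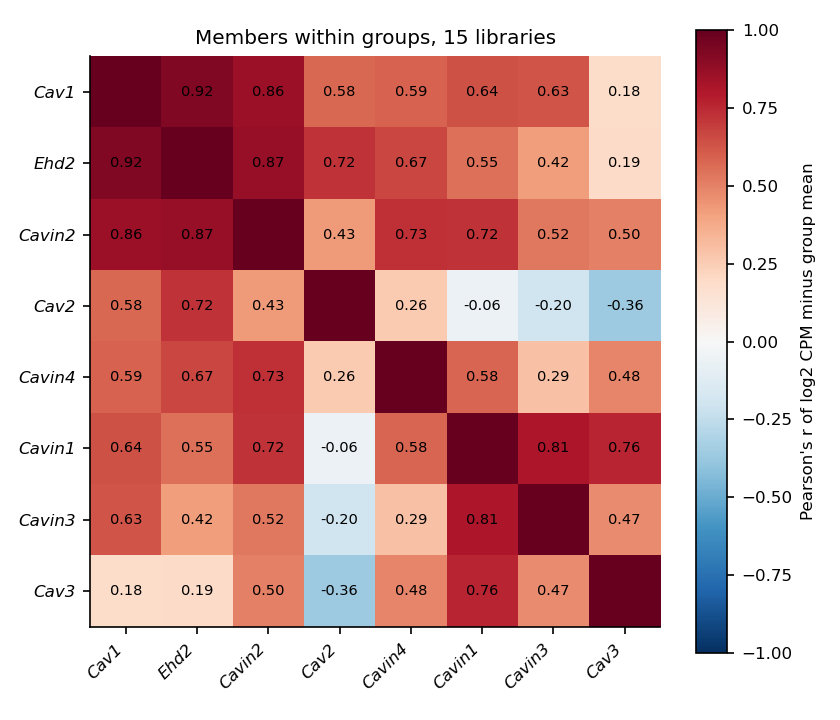
Pearson correlation between members of log2 CPM minus the group mean, over 15 libraries, from blue (-1) to red (1). Cav1, Ehd2 and Cavin2 form the most alike block (0.86 to 0.92), Cavin1 and Cavin3 pair at 0.81, and Cav2 is below 0 with Cavin1, Cavin3 and Cav3, of which only Cav3 stays below 0 over 13 libraries.

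Among all tested genes, those closest to 7 of the members by the same measure were Steap4 (r = 0.97), Gnb4 (0.93) and Nos2 (0.93) for Cav1, and F11r (0.96), Elk3 (0.94) and Ets1 (0.93) for Ehd2. For Cavin2 they were Gimap4 (0.95), Msx1 (0.92) and Mndal (0.91), and for Cav2 Fgd5 (0.94), 4930503L19Rik (0.92) and Timm21 (0.92). For Cavin4 they were Asb12 (0.95), Ppp2r5a (0.95) and Klhl30 (0.95). Cavin1 was closest to Col15a1 (0.98), Anxa5 (0.97) and Cd81 (0.96), and Cavin3 to Orai3 (0.95), H2-Eb1 (0.94) and H2-DMb1 (0.94). Over 13 libraries these correlations ran from 0.70 to 0.97, and none of the named genes was shared between these members.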

How the data were processed

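The samples were 15 tibialis anterior libraries from TruSeq stranded mRNA kits. The file deposited by the authors gives raw counts of reads for each Ensembl gene, without normalization. The submitters' notes name the genome as GRCm38 and mm10 and list HTSeq 0.6.1p1, STAR 2.5.3a, Bowtie2 2.2.8 and cutadapt 1.10. Strand setting, annotation release and read filters were not given in the sources read. All 30672 identifiers matched GENCODE M21 (GRCm38), which gave symbols, coordinates and exon lengths, and promoters came from RefSeq.

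The members and all lists were chosen with earlier results of these data known. The counts were fitted in R 4.3.3 with edgeR 4.0.16 after filterByExpr (minimum count 10) and TMM scaling, with glmQLFit and glmQLFTest on all 15 libraries (11 residual degrees of freedom). Errors of fold changes are standard errors of that fit. A call needed an adjusted p under 0.05 over all 15533 tested genes. Ratios were compared by exact permutation (scipy 1.17.1) on values without a pseudocount. P-values measure the spread between libraries, which the labels do not tie to separate animals, and counting error does not cover it. Named were the 8 members, called genes of 3 pathway lists, defining markers and the 3 genes most like each member (for Cav3 not reported here).

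Alternatives were RLE and upper-quartile factors, no filter, a minimum count of 50, DESeq2 1.42.0, limma-voom (3.58.1), fits of the compared groups alone, a replicate block, each library left out and both libraries that stood apart left out. Of 21 pairs of libraries with the same replicate number in different groups, 6 had deviations correlated over 0.1, so the numbers were not taken to pair the libraries. The fit was tested on simulated counts. Total counts per library were 18042558 to 45823277.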

Additional observations from a re-analysis of the deposited data

How the results depend on the processing

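The count of called members was 4 to 6 between Mtm1-/y and WT, 6 between the treated groups and 6 between Mtm1-/y + TAM and WT under every alternative that kept all libraries or left out the 2 that stood apart, and 0 in the other comparisons. Leaving out each library in turn gave 4 to 6, 2 to 6, 4 to 6 and 0. No called member changed direction. Cavin1 between Mtm1-/y and WT turned to -0.012 with upper-quartile factors, and lay between -0.049 and 0.18 when each library was left out. Over the same left-out libraries, Cavin3 lay between -0.026 and 0.28, Cavin1 between the treated groups between -0.078 and 0.11, and Cav1 between the mutant groups between -0.010 and 0.18. Cavin1 between the mutant groups, at -0.02, turned to 0.0059 with upper-quartile factors and 0.016 with the replicate block, and lay between -0.16 and 0.067 when each library was left out. The cause was not tested.

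The ratios that passed the threshold kept their direction. Without single libraries, each of the untreated ratios stayed past it after adjustment in 4 of 8 cases, and Cav3 to Cav1 with tamoxifen in 0 of 7. All of them missed it without the 2 libraries that stood apart or when libraries were paired. Smaller groups also raise the lowest p that exact permutation allows, so these misses do not by themselves show a smaller difference. The ratio of Cav1 to endothelial markers with tamoxifen, which had not passed, changed sign. Without the 2 libraries that stood apart, Cav3 to Cav1 was 1.63 (adjusted exact permutation p = 0.0571) and 1.48 with tamoxifen (0.12), Cavin4 to Cavin1 was 0.49 (0.0571), and Cav1 to endothelial markers was -0.28 (0.0571), while with tamoxifen it turned to 0.018 (0.9). Leaving out each library gave 1.34 to 1.70 for Cav3 to Cav1, 0.45 to 0.53 for Cavin4 to Cavin1 and -0.42 to -0.28 for Cav1 to endothelial markers, and with tamoxifen 1.18 to 1.48, 0.53 to 0.82 and -0.12 to 0.018, the last without WT + TAM replicate 1. With the geometric mean of the markers, chosen after seeing the data, Cav1 to endothelial markers was -0.31.

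The replicate numbers were not taken to pair the libraries. Libraries with the same number had correlations of -0.11 to 0.31 (median -0.0041, against -0.013 for different numbers), which does not settle whether some share a batch. With the replicate block the call of Cav3 between Mtm1-/y and WT was lost (0.52, edgeR adjusted p = 0.0589) and no other member's call changed. With the block, by exact sign flips, Cav3 to Cav1 was 1.5 (adjusted p = 0.25) and 1.24 with tamoxifen (0.30), Cavin4 to Cavin1 was 0.50 (0.25) and Cav1 to endothelial markers was -0.36 (0.25). Before adjustment, 4 pairs cannot give a p under 0.125.

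Over all genes, the count called between WT + TAM and WT was 48 with edgeR, 298 with DESeq2, 347 without the 2 libraries that stood apart and 33 with the replicate block. Leaving out single libraries moved it between 11 (WT replicate 1) and 143 (Mtm1-/y replicate 1). The interaction count was 0 with edgeR, 74 with DESeq2, 2 without a filter, 14 without the 2 libraries and 0 to 7 without single libraries. Between the mutant groups it was 2, and 0 to 7 under the alternatives. Without Mtm1-/y + TAM replicate 2 it was 1656 in place of 3121 between the treated groups and 2188 in place of 3615 against WT.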

Other observations

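Replicate 1 was the lowest library of its group for 7 of 8 members in WT, 7 of 8 in Mtm1-/y, 7 of 8 in Mtm1-/y + TAM and 5 of 8 in WT + TAM. Over all 15533 tested genes it was the lowest of its group for 29.7%, 36.2%, 33.3% and 32.7% in the same order of groups. The other libraries were the lowest for 22.0% to 24.7% in WT, 17.8% to 23.3% in Mtm1-/y and 20.4% to 24.4% in WT + TAM. In Mtm1-/y + TAM they were at 33.7% and 33.1%, so over all genes replicate 1 of that group did not differ from them. The total counts of these libraries were 45823277, 34976235, 18042558 and 24535118, so they were not the deepest or shallowest of every group. The labels do not say that a replicate number marks a shared batch or day. No member and no ratio had a library far enough from the others of its group to be set apart by Dixon's test in the 33 groups of 4 libraries tested.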
